A study of Mus musculus with 2 samples.

Results

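Conventional dendritic cells of type 1 (cDC1) and type 2 (cDC2) were compared within the same MC38 tumours. The members were the cells that the deposited cell table names cDC1 or cDC2 and whose barcode holds at least 1000 mouse UMIs (unique molecular identifiers, 1 per captured transcript) in the expression matrix. After 2 cells with a hashtag of another treatment were left out, 47 cDC1 and 200 cDC2 remained, 247 of the 8716 cells of the library that could be matched to a mouse. The replicate was the mouse, read from the hashtag with the most UMIs, so each comparison sets 6 cDC1 sums against 6 cDC2 sums of the same 6 mice.

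Dendritic cells take up antigen, carry it to lymph nodes and show it to T cells. cDC1 depend on the transcription factors BATF3 and IRF8, take up dead cells through CLEC9A and are known for cross-presentation, the loading of outside antigen on MHC class I for CD8 T cells. cDC2 depend more on IRF4, KLF4 and ZEB2, carry SIRPA and many C-type lectins, and are known for presenting antigen on MHC class II to CD4 T cells.

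The host mice had the genotype "Human FCR", with human Fc gamma receptors, and received 2000000 cells of MC38, a mouse colon carcinoma line, under the skin of the flank. They were injected with antibodies against mouse GITR, a costimulatory receptor of T cells, made as human IgG1 Fc variants at 100 µg per mouse, 2 times at an interval of 3 days. CD45+ cells, which are leukocytes, were sorted 4 days after treatment. The 6 mice were 2 Untreated (the series text calls the control PBS), 2 given N297A (agonist, Fc-null), 1 given the Fc-enhanced agonist GA-aFuc, and 1 given GITR/Syn GA-aFuc, an Fc-enhanced antibody labelled as a non-agonist. The series text speaks of 3 mice per treatment, and mice outside these 6 hashtags were not analysed here. Neither the promoters of the human receptor genes nor the state of the mouse receptor genes is given in the labels.

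Cells per mouse numbered 6 to 10 for cDC1 and 26 to 47 for cDC2, and the sums held 108404 to 195439 mouse UMIs for cDC1 and 293031 to 604771 for cDC2. A cDC1 held a median of 18338 UMIs and a cDC2 11239.5. Levels are given as CPM, UMIs per 1000000 mouse UMIs of the sum, as the lowest, median and highest of the 6 mice. All cDC1 came from 1 deposited cluster, number 60, and the cDC2 from 3, with 101 cells in cluster 36, 87 in cluster 46 and 12 in cluster 64. These clusters were named by the authors from the expression data of the same cells, so the tests below measure how steady a difference is over 6 mice and are not independent evidence that the types differ. The first principal component of the 12 sums held 53.3% of the variance and separated the types. The second held 11% and set 1 sum apart, the 6 cDC1 of N297A replicate 2. Without that mouse 456 genes were higher in cDC1 and 649 in cDC2, beside 569 and 664 with it.

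The deposited names were checked against defining markers. Xcr1, the chemokine receptor that marks cDC1, measured 297.2, 502 and 517 CPM in cDC1 and 0, 2.8 and 11.6 CPM in cDC2. Clec9a, the dead-cell receptor, measured 252, 275 and 369 CPM in cDC1 and 13.9, 25.9 and 36.5 CPM in cDC2. Cd209a, a lectin of cDC2, had 0 UMIs in all 47 cDC1 and 18.5, 99.1 and 293 CPM in cDC2. Neither cDC1 marker overlapped between the types in any pair of mice, and the cDC1 zero for Cd209a allows a level of up to 3.35 CPM (3 UMIs over the group), so cDC2 were at least 33.4-fold higher. Within cDC2 the marker was uneven: it reached 247 CPM in cluster 36, 20.2 CPM in cluster 46 and 3.85 CPM in cluster 64, and 42 of 200 cDC2 held a UMI of it. Thinned to 2000 UMIs per cell, 56.2% of cDC1 held an Xcr1 UMI (91.5% unthinned), beside 0.843% of cDC2 (4% unthinned) and 0.0484% of CD8 T cells (0.331% unthinned, median depth 8158 UMIs).

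**Figure D1:**
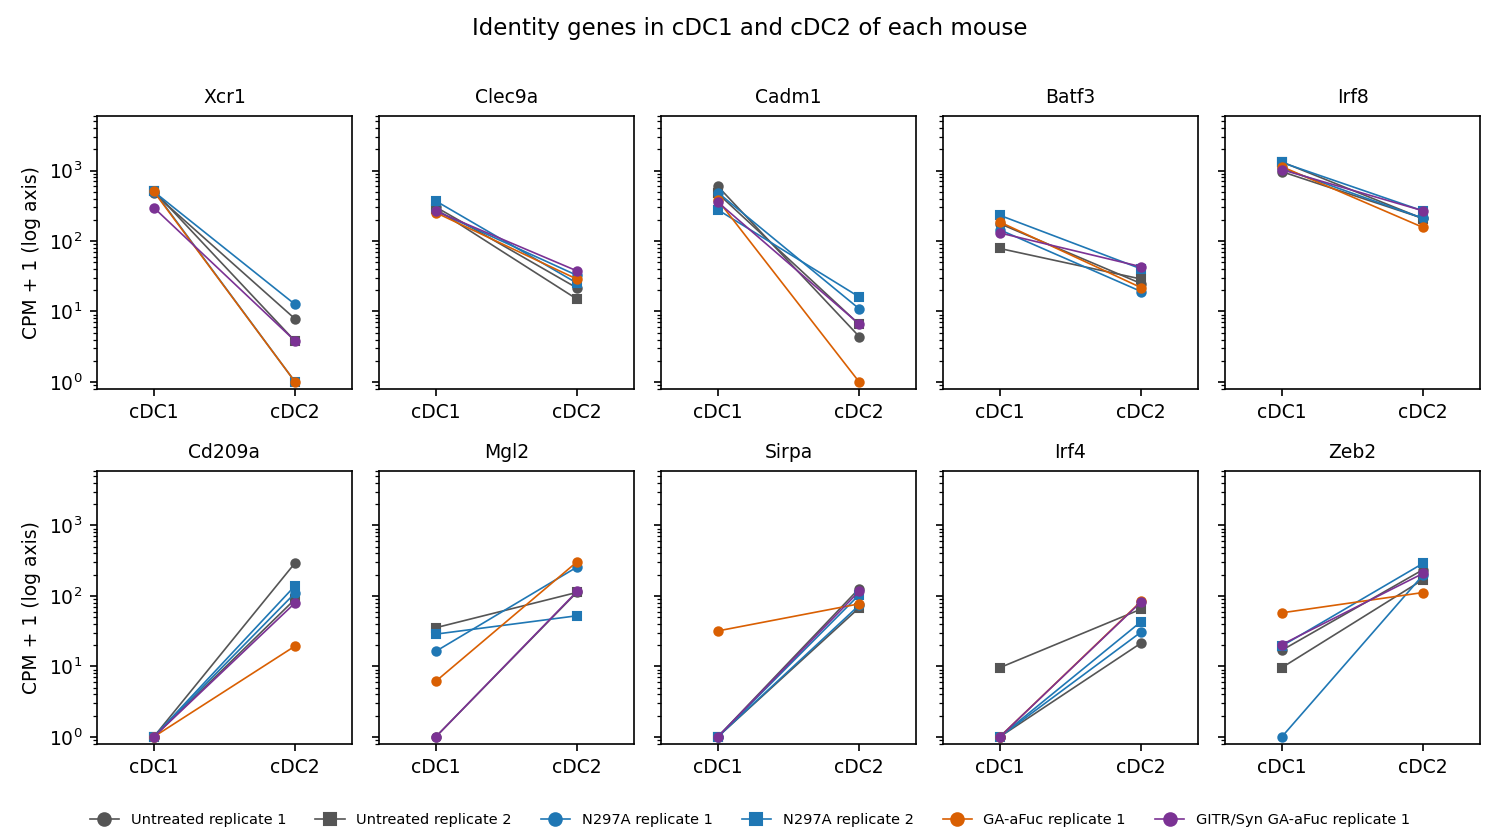
Level of 10 identity genes (CPM plus 1, log axis) in the cDC1 sum and the cDC2 sum of each of the 6 mice, joined by a line per mouse and coloured by treatment. Xcr1, Clec9a, Cadm1, Batf3 and Irf8 (top row) fall from cDC1 to cDC2 in every mouse, Cd209a, Mgl2, Sirpa, Irf4 and Zeb2 (bottom row) rise in every mouse, and points at 1 are sums with 0 UMIs.

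Markers of other cells are given here once, and not all of them differed between the types. Of the macrophage markers 4 were tested and 0 passed in either direction. For C1qa that result depended on the setting (log2 difference -1.32, edgeR adjusted p = 0.134). It passed as higher in cDC2 without GA-aFuc replicate 1 (-2.17, edgeR adjusted p = 2.54e-05) and against cluster 36 alone (-2.03, edgeR adjusted p = 0.0229). With DESeq2 it also passed (-1.66, adjusted p = 0.0348). In GA-aFuc replicate 1 the sum of the macrophage markers was higher in cDC1, at 1182 CPM against 658 CPM in cDC2. The 7 macrophage markers summed to 261 to 1182 CPM in cDC1 and 590 to 2351 CPM in cDC2, against a mean of 24567 CPM in macrophages and 22272 CPM in free RNA, the pool of barcodes with 10 to 100 UMIs. The 6 monocyte markers summed to 1371 to 2574 CPM in cDC1 and 2405 to 3645 CPM in cDC2, against 5334 CPM in monocytes, with F13a1 at 0 in cDC1 and Chil3 at 0 in both. Of these markers 2 were tested and both were higher in cDC2. The call of Ly6c2 (log2 difference -1.51, edgeR adjusted p = 0.00708) was lost against cluster 46 alone (edgeR adjusted p = 0.506). It was also lost without the top cell of each gene (edgeR adjusted p = 0.0999) and without the block for mouse (edgeR adjusted p = 0.0506). The tumour cell markers summed to 0 to 15.4 CPM in cDC1 and 20.5 to 75.9 CPM in cDC2, nearly all of it Epcam, with Krt8 and Krt18 at 0 or 1 UMI in each type. The 5 T cell markers stayed at or under 35.8 CPM and the 4 NK markers at or under 18.4 CPM in every sum, with Cd3e at 0 in cDC1. The C1q genes of cDC1 were uneven between mice: 1 cell carried 52.6% of the C1qa UMIs of all cDC1, and GA-aFuc replicate 1 held the highest level, 298 CPM. Their part in the differences below was not tested, except that without 4 cDC2 with over 1% of UMIs in macrophage, T cell and NK markers, 504 genes were higher in cDC1 and 687 in cDC2.

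Across the transcriptome, 3657 genes passed the count filter, of 33696 mouse genes and 6 human Fc receptor genes, and were tested with edgeR's quasi-likelihood test with the mouse as a block. Of these, 569 were higher in cDC1 (15.6% of the genes tested) and 664 higher in cDC2 (18.2%) at a Benjamini-Hochberg adjusted p under 0.05, or 33.7% in either direction. The median log2 difference over all genes tested was 0.04, cDC1 minus cDC2 throughout. The list counts below stand beside the shares of 15.6% and 18.2%, and a list near them is not set apart from all genes tested. The 6 cDC1 levels and the 6 cDC2 levels of a gene did not overlap for 621 genes (17%). The number higher in cDC1 fell to 330 with DESeq2, and with no filter the number higher in cDC2 rose to 1251.

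Of 21 cDC1 identity genes in the files 17 were tested; 16 were higher in cDC1 and 1, Itgb7, was higher in cDC2, with a median log2 difference of 2.47. The list is made of genes known for this cell type, so the count describes how the deposited names relate to it. Cadm1, an adhesion molecule used to gate cDC1 across species, measured 277, 426 and 597 CPM in cDC1 and 0, 5.59 and 15.1 CPM in cDC2 (log2 difference 5.92, SE 0.32, adjusted p = 3.48e-10). Ppt1, a lysosomal thioesterase, measured 465, 552 and 768 CPM in cDC1 and 47.8, 68.5 and 115 CPM in cDC2 (log2 difference 3.08, SE 0.18, adjusted p = 4.93e-10). For both genes the lowest cDC1 sum lay above the highest cDC2 sum. Tlr3, which senses double-stranded RNA in endosomes, measured 118, 145 and 268 CPM against 22.5, 28.6 and 42.2 CPM (log2 difference 2.34, SE 0.24, adjusted p = 4.23e-07). Cd24a, a surface glycoprotein used to sort cDC1, measured 231, 292 and 344 CPM against 11.2, 43.8 and 57.7 CPM (log2 difference 2.89, SE 0.25, adjusted p = 5.31e-08). Naaa, a lysosomal amidase, had a log2 difference of 2.23 (SE 0.22, adjusted p = 9e-07) and Ifi205, an interferon-inducible gene, one of 0.62 (SE 0.13, adjusted p = 0.00143), which did not pass against cluster 36 of the cDC2 alone (0.49, adjusted p = 0.0633).

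Itgae, the CD103 integrin chain of tissue cDC1, also depended on which cDC2 it was set against. It measured 111, 239 and 358 CPM in cDC1 and 58, 96.4 and 196 CPM in cDC2 (log2 difference 1.18, SE 0.24, adjusted p = 0.000747), and the 2 ranges overlapped. Cluster 36 of the cDC2 held 27.5 CPM and cluster 46 held 172 CPM, and against cluster 46 alone Itgae did not pass (adjusted p = 0.079). Itgb7, whose product pairs with CD103, went the other way, at 61.4, 103 and 137 CPM in cDC1 and 126, 187 and 250.1 CPM in cDC2 (log2 difference -0.90, SE 0.23, adjusted p = 0.00475). Of the 4 members below the filter, Gcsam had 57 UMIs in 26 cDC1 and 0 in all 200 cDC2, a level at least 50.5-fold higher in cDC1 (3 UMIs over the group), and Cd8a had 4 UMIs in each type.

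Of 21 cDC2 identity genes 9 passed the count filter and were tested; 6 of these were higher in cDC2 and 0 in cDC1, with a median log2 difference of -2.05. Sirpa, the receptor for the CD47 signal, had UMIs in 3 of 47 cDC1 and 112 of 200 cDC2. It measured 0, 0 and 30.8 CPM in cDC1 and 66.8, 89.4 and 126 CPM in cDC2 (log2 difference -3.71, SE 0.58, adjusted p = 0.000151), with 67% of the 6 cDC1 UMIs in 1 cell. Mgl2, the lectin CD301b, measured 0, 10.2 and 34.4 CPM against 51.3, 114 and 305 CPM (log2 difference -3.71, SE 0.50, adjusted p = 5.4e-05). Il1b, the inflammatory cytokine, measured 247, 386 and 1116 CPM in cDC1 and 1506, 1785 and 2819 CPM in cDC2 (log2 difference -2.12, SE 0.30, adjusted p = 0.00093). Every cDC2 sum of Sirpa, Mgl2 and Il1b lay above every cDC1 sum. Lyz2, lysozyme, did not pass (log2 difference -1.05, SE 0.43, adjusted p = 0.102): it measured 794 CPM in cluster 36 and 158 CPM in cluster 46, beside 176 CPM in cDC1. It passed against cluster 36 alone (-1.96, adjusted p = 0.00909), without N297A replicate 2 (-1.13, adjusted p = 0.0395) and without Untreated replicate 2 (-1.495, adjusted p = 0.00215). Notch2 and Ccr2, of the same list, changed direction between mice. The log2 difference of Notch2 ran from -1.77 in GITR/Syn GA-aFuc replicate 1 to 0.56 in Untreated replicate 2. That of Ccr2 ran from -2.13 in N297A replicate 2 to 0.70 in Untreated replicate 2. Ccr2 measured 179 CPM in cluster 36 and 21.1 CPM in cluster 46, beside 48.0 CPM in cDC1.

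The cDC2 genes below the filter had few UMIs in cDC1, and those given here with an adjusted p passed in the fit without a filter. That fit took in 15984 genes, against 3657 with the filter. Its adjusted p values, here and below, are not comparable with the filtered ones. It called 974 of the 1233 genes called with the filter, while the edgeR adjusted p of Mki67 moved from 0.081 to 0.00128. Irf4, the transcription factor named above, had 1 UMI in all cDC1 and 126 UMIs in 65 cDC2 (log2 difference -5.23, adjusted p = 1.44e-12 without the filter). Clec10a, the lectin CD301a, had 6 UMIs in 2 cDC1, 5 of them in 1 cell, and 145 UMIs in 52 cDC2 (log2 difference -3.31, adjusted p = 4.13e-10 without the filter). Itgam, the CD11b chain, had 6 UMIs in 4 cDC1 and 146 in 80 cDC2 (log2 difference -3.23, adjusted p = 3.83e-10 without the filter), and Ltb, lymphotoxin beta, 2 and 153 UMIs (log2 difference -4.70, adjusted p = 2.94e-14 without the filter). Clec4a4 and Cd4, which mark cDC2 of the spleen, had 0 UMIs in cDC1 and 1 UMI each in cDC2, so neither could be compared. Tmem176a, a membrane protein gene of myeloid cells, was held by 1 cDC1 and 61 cDC2 (log2 difference -5.59, adjusted p = 8.18e-17 without the filter).

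Besides Xcr1 and Cadm1, the 14 named genes furthest apart in the cDC1 direction have varied known roles. Ffar4, a receptor for long-chain fatty acids, measured 119, 156 and 212 CPM in cDC1 and 4.61, 7.63 and 16.7 CPM in cDC2 (log2 difference 4.15, SE 0.29, adjusted p = 3.78e-09). Cd36, a scavenger receptor that binds lipids and dying cells, measured 119.9, 183 and 333 CPM against 2.78, 11 and 24.8 CPM (log2 difference 4.03, SE 0.31, adjusted p = 1.15e-08). Rab7b, a small GTPase of late endosomes, measured 251, 317 and 382 CPM against 16.2, 24.1 and 37.5 CPM (log2 difference 3.65, SE 0.21, adjusted p = 3.52e-10). None of these ranges overlapped. Agpat3, an acyltransferase of phospholipid synthesis, differed by 4.72, Zc3h12c, a ribonuclease of the Regnase family, by 4.80, Fnip2, a partner of folliculin, by 3.95, and Spp1, osteopontin, by 3.70 (adjusted p at most 2.53e-07).

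In the cDC2 direction the furthest gene was Il7r, the interleukin-7 receptor chain, with 1 UMI in all cDC1 and 102, 130.4 and 222 CPM in cDC2 (log2 difference -6.51, SE 0.49, adjusted p = 9.37e-09). Such fitted values against a near-empty group depend on the fit's prior count. S100a4, a calcium-binding protein of motile cells, measured 9.22, 24.9 and 129 CPM in cDC1 and 1307, 1549 and 1852 CPM in cDC2 (log2 difference -5.19, SE 0.31, adjusted p = 2.07e-07). Ccr1, a chemokine receptor of myeloid cells, measured 0, 0 and 10.3 CPM against 114, 165 and 205 CPM (log2 difference -5.42, SE 0.44, adjusted p = 2.45e-08). In each of these genes all 6 cDC2 sums stood above all 6 cDC1 sums. Ctnnd2, delta-catenin, differed by -5.61 and Maml3, a coactivator of Notch signalling, by -5.39 (adjusted p at most 4.76e-08). Ifitm1, an interferon-induced membrane protein, measured 0, 30.6 and 286 CPM in cDC1 and 2324, 2884 and 3302 CPM in cDC2 (log2 difference -5.65, SE 0.75, adjusted p = 0.00294), and 56% of its cDC1 UMIs lay in 1 cell.

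Among 26 transcription factors of dendritic cell development, 22 were tested. Of these 4 were higher in cDC1 and 10 in cDC2 (median log2 difference -0.58), beside 15.6% and 18.2% of all genes tested. Irf8, required for cDC1, measured 963, 1108 and 1323 CPM in cDC1 and 155, 208 and 267 CPM in cDC2 (log2 difference 2.40, SE 0.14, adjusted p = 4.93e-10). Batf3, which keeps Irf8 active in cDC1, measured 77.3, 159 and 231 CPM against 18.2, 25.9 and 42.2 CPM (log2 difference 2.47, SE 0.26, adjusted p = 7.09e-07). Both factors were separate between the types in all mice. Id2, an inhibitor of E proteins, had a difference of 1.83 (adjusted p = 2.03e-05) and Rbpj, the nuclear effector of Notch, one of 1.14 (adjusted p = 2.89e-05). Zeb2, a repressor that opposes cDC1 fate, measured 0, 17.2 and 56.5 CPM in cDC1 and 111, 203 and 289.7 CPM in cDC2 (log2 difference -3.17, SE 0.45, adjusted p = 0.00013), with 53% of the cDC1 UMIs in 1 cell. Klf4 (-2.05), Nfil3 (-2.18), Tcf4, an E protein (-1.91), and Cebpb (-1.67) were also higher in cDC2, with adjusted p at most 2.63e-05. Nfil3 is known as an early factor upstream of cDC1 development, and here it measured 9.22, 30.8 and 34.4 CPM in cDC1 and 80.8, 129 and 144 CPM in cDC2.

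Of all lists, the type I interferon response held the largest number of genes that were higher in cDC2. By share of the genes tested it was not the first, since the Fc receptor list held 6 of 7. Of all genes tested 18.2% were higher in cDC2. Of 29 type I interferon response genes tested, 21 were higher in cDC2 and 1, Oasl1, was higher in cDC1 (median log2 difference -1.06), and of 18 interferon-gamma response genes 15 were higher in cDC2 and 0 in cDC1 (median -1.78). Ifit3, an antiviral effector, measured 0, 10.8 and 15.9 CPM in cDC1 and 218, 277 and 301 CPM in cDC2 (log2 difference -4.63, SE 0.32, adjusted p = 3.78e-09). Ifit1, of the same family, measured 0, 5.13 and 27.7 CPM against 99, 236 and 265 CPM (log2 difference -4.65, SE 0.41, adjusted p = 7.55e-08). Rsad2, viperin, measured 10.2, 21.5 and 119.9 CPM against 68.3, 246 and 362 CPM (log2 difference -2.68, SE 0.45, adjusted p = 0.000689), with overlapping ranges. Gbp2, a guanylate-binding GTPase induced by interferon gamma, measured 9.22, 44.6 and 79.6 CPM in cDC1 and 296, 348 and 483 CPM in cDC2 (log2 difference -3.13, SE 0.29, adjusted p = 3.7e-07). Oasl1, an oligoadenylate synthetase-like protein that represses translation of Irf7, measured 163, 344 and 489 CPM in cDC1 and 109, 157 and 257 CPM in cDC2 (log2 difference 0.98, SE 0.17, adjusted p = 0.000171), and it did not pass against cluster 36 alone (0.43, adjusted p = 0.0649).

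The promoters of 5 of these genes are shown because they cover both interferon lists and the 1 gene that went the other way. Each is the 250 bases before the gene's start in RefSeq (build GRCm38.p6, which is not the build of the counts), 5′ to 3′ on the gene's strand. Capitals mark 2 copies of GAAA with any 2 bases between them, or of TTTC where the match is on the other strand. This is the core of the element bound by interferon-activated factors.
Ifit1 promoter, chr19:34640639-34640888, plus strand: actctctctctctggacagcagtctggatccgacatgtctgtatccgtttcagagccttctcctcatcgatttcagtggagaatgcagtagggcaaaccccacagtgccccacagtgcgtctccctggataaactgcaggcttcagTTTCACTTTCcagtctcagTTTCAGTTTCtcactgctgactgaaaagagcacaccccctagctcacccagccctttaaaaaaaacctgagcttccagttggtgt
Ifit3 promoter, chr19:34583279-34583528, plus strand: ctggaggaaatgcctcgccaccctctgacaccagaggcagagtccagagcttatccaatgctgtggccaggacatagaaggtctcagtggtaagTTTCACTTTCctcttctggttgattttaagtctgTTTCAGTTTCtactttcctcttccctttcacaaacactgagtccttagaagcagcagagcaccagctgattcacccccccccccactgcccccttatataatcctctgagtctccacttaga
Rsad2 promoter, chr12:26456453-26456702, minus strand: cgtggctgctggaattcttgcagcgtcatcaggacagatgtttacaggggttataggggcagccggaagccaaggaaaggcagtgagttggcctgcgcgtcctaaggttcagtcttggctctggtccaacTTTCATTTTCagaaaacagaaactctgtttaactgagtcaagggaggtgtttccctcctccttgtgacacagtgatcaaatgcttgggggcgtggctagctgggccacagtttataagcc
Gbp2 promoter, chr3:142620413-142620662, plus strand: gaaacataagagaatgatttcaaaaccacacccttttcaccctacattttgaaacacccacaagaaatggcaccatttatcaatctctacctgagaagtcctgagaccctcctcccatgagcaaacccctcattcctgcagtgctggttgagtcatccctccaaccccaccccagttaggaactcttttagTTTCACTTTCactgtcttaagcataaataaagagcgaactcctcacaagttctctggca
Oasl1 promoter, chr5:114922990-114923239, plus strand: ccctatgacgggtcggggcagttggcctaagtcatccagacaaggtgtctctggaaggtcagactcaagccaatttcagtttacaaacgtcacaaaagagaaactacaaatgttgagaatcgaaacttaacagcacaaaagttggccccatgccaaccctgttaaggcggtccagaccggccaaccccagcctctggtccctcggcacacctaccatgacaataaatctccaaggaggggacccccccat

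Ifit1 and Ifit3 hold 2 matches each, Rsad2 and Gbp2 1 each, and Oasl1 0. The motif was found in 3.04% of all 27025 promoters of the table (1 per gene, same window), and in 4.07% of the 2925 promoters matched to genes tested. It was in 9.63% of 509 promoters of genes higher in cDC2 and 2.41% of 456 of genes higher in cDC1. Of the type I members higher in cDC2, 15 of 21 matched a promoter and 8 hold the motif (53.3%). Of the interferon-gamma members 12 of 15 matched and 9 hold it (75%). Among all tested members, whatever their direction, the motif was in 10 of 21 type I promoters (47.6%) and 9 of 14 interferon-gamma promoters (64.3%). The motif is thus common in both lists as a whole. Most tested members of both lists were themselves higher in cDC2, so these shares cannot separate list membership from direction. Whether the motif goes with the cDC2 direction was not tested. The AP-1 motif TGANTCA, which reads the same on both strands and was counted whether or not it overlapped the first, stood in 4.17% of promoters of genes higher in cDC1, 5.70% of those higher in cDC2, 4.48% of those tested and 6.87% of all. It also stood in 4 of the 15 type I promoters (26.7%) and 3 of the 12 interferon-gamma promoters (25%) of members higher in cDC2. A match describes letters in the window and not binding.

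Receptor chains and transcription factors of these signals, chosen after their values were seen, were mixed. Ifngr1, a chain of the interferon-gamma receptor, was higher in cDC2 at 103, 157 and 266 CPM in cDC1 and 358, 491 and 545 CPM in cDC2 (log2 difference -1.501, SE 0.19, adjusted p = 5.2e-06). Ifnar2, of the type I receptor, differed by -0.91 (adjusted p = 0.00421), and the partner chain of each receptor did not pass. Irf1, which carries the signal in the nucleus, differed by -1.67 (adjusted p = 2.69e-06). Irf7, the master factor of the type I response, did not pass, at 378, 571 and 776 CPM in cDC1 and 367, 542 and 785 CPM in cDC2 (log2 difference 0.05, SE 0.14, adjusted p = 0.832). The summed level of the 31 type I genes was 4493 to 9963 CPM in cDC1 and 10350 to 15233 CPM in cDC2, with a mean of 14025 CPM in monocytes, 7229 CPM in CD8 T cells and 11184 CPM in free RNA. The 26 interferon-gamma genes summed to 1082 to 3266 CPM in cDC1 and 4686 to 7484 CPM in cDC2. N297A replicate 2 had the highest sum in both types, and Untreated replicate 2 the lowest in cDC1. Without N297A replicate 2 the counts were 21 of 28 and 16 of 18 higher in cDC2.

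**Figure D2:**
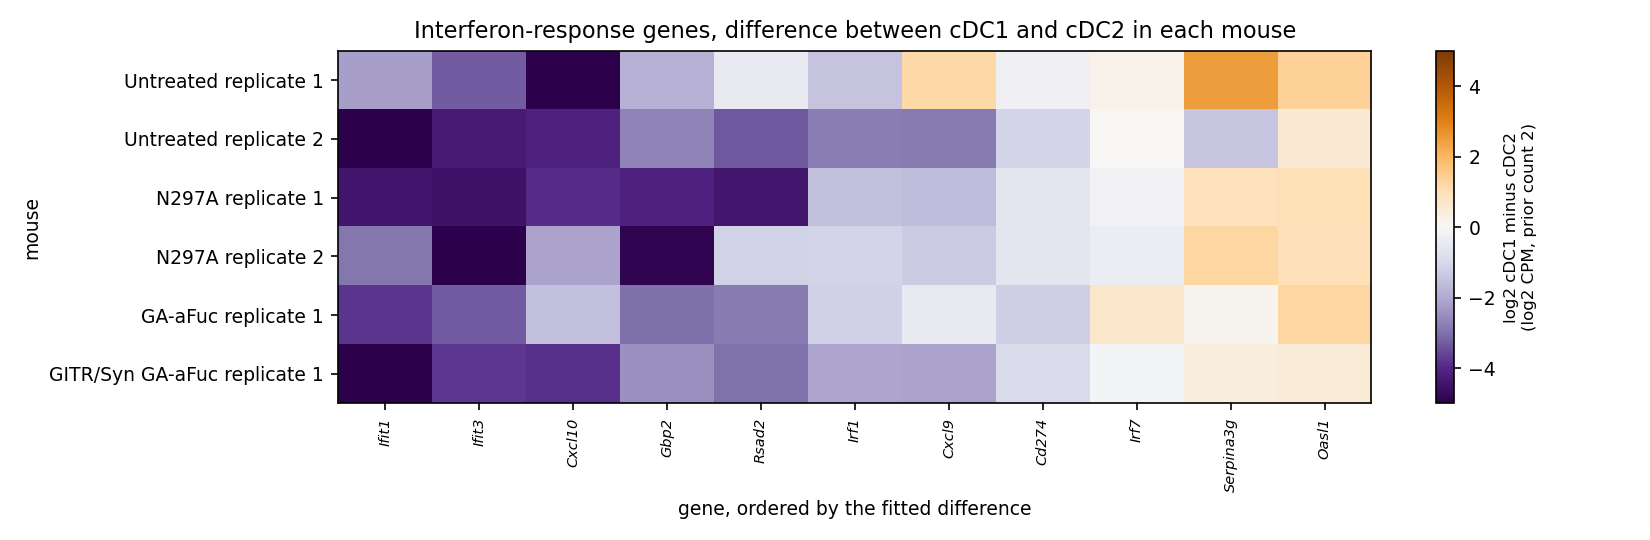
Difference of log2 CPM (prior count 2), cDC1 minus cDC2, for each tested interferon-response gene named in the text (columns, ordered by fitted difference) in each mouse (rows), with purple for higher in cDC2 and orange for higher in cDC1. The columns from Ifit1 to Irf1 and that of Cd274 are purple in all 6 mice, Oasl1 at the right end is orange in all 6, and Cxcl9, Irf7 and Serpina3g change colour between mice.

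Genes of antigen presentation did not move as 1 group. Of 31 class I and cross-presentation genes tested, 9 were higher in cDC1 and 9 in cDC2, with a median log2 difference of 0.03. Genes of the class I molecule itself were higher in cDC2: H2-K1, a heavy chain, measured 1253, 1324 and 1718 CPM in cDC1 and 2018, 2213 and 2695 CPM in cDC2 (log2 difference -0.68, SE 0.11, adjusted p = 6.59e-05), and B2m, their light chain, 1409, 1813 and 2103 CPM against 2727, 3035 and 3298 CPM (log2 difference -0.78, SE 0.08, adjusted p = 8.93e-07). The cDC1 side held Wdfy4, needed for cross-presentation of cell-bound antigen, at 775, 922 and 1074 CPM in cDC1 and 259.5, 290.5 and 489 CPM in cDC2 (log2 difference 1.497, SE 0.14, adjusted p = 9.63e-08). It also held Pdia3, of the peptide-loading complex (0.87, adjusted p = 0.000105), and the immunoproteasome chain Psmb9 (0.72, adjusted p = 8.44e-05). Tap1, the peptide transporter, did not pass (log2 difference 0.03, SE 0.15, adjusted p = 0.905).

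The phagosomal oxidase was uneven. Cybb, its catalytic chain, measured 0, 12.6 and 71.9 CPM in cDC1 and 256, 299 and 350.0 CPM in cDC2 (log2 difference -3.69, SE 0.44, adjusted p = 4.43e-05), with 52% of the 21 cDC1 UMIs in 1 cell. Every cDC2 sum stood above every cDC1 sum. Cyba, the membrane partner of Cybb, did not pass at 852, 1120 and 1228 CPM in cDC1 and 768, 978 and 1123 CPM in cDC2 (log2 difference 0.16, SE 0.12, adjusted p = 0.357).

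Of 17 class II presentation genes tested, 10 were higher in cDC2 and 0 in cDC1 (median log2 difference -0.44). H2-Ab1, a class II chain, measured 5847, 6926 and 8264 CPM in cDC1 and 8354, 9015 and 9927 CPM in cDC2 (log2 difference -0.36, SE 0.08, adjusted p = 0.00199). Ctss, the protease that trims the invariant chain, measured 435, 524 and 609.9 CPM against 1564, 1904 and 2206 CPM (log2 difference -1.84, SE 0.12, adjusted p = 2.51e-09). The ranges of Ctss were well apart, while those of H2-Ab1 were close to each other. H2-DMb2 and H2-Oa, which encode chains of the peptide exchange factors DM and DO, differed by -1.68 and -1.56 (adjusted p at most 1.99e-05).

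For pattern recognition, 16 of 37 genes were tested, with 2 higher in cDC1 and 9 higher in cDC2 (median log2 difference -1.19). Besides Tlr3, the cDC1 gene was Clec12a, an inhibitory lectin that senses dead cells, at 87, 137 and 166 CPM in cDC1 and 30.7, 52.2 and 72.4 CPM in cDC2 (log2 difference 1.33, SE 0.24, adjusted p = 0.00024). Clec7a, the beta-glucan receptor Dectin-1, measured 18.4, 59.4 and 123 CPM in cDC1 and 473, 702 and 879.7 CPM in cDC2 (log2 difference -3.44, SE 0.22, adjusted p = 1.28e-09). Clec4n, Dectin-2, measured 0, 0 and 10.2 CPM against 75.1, 134 and 196 CPM (log2 difference -5.23, SE 0.47, adjusted p = 8.06e-08), with 3 UMIs in 2 cDC1. For both of these fungal sensors every cDC2 sum stood above every cDC1 sum. Rigi, the RNA sensor RIG-I, differed by -3.26 (adjusted p = 2.02e-06). Syk, the kinase that these lectins signal through, was in the cross-presentation list and differed by -2.05 (adjusted p = 2.84e-06). Below the filter, Tlr11 and Tlr12, which sense profilin of parasites, had 20 and 32 UMIs in cDC1 against 9 and 8 in cDC2 (log2 difference 3.10, adjusted p = 4.35e-06 without the filter for Tlr12, adjusted p = 0.00464 for Tlr11), and Tlr1 had 0 UMIs in cDC1 and 39 in cDC2.

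Of 12 chemokine and chemokine receptor genes tested, Xcr1 alone was higher in cDC1 and 7 were higher in cDC2 (median log2 difference -1.32). Cxcl10, a ligand of CXCR3 that draws T cells, measured 7.96, 62.3 and 239.8 CPM in cDC1 and 629.9, 909 and 1128 CPM in cDC2 (log2 difference -3.16, SE 0.45, adjusted p = 0.000934). Cxcl9, a second CXCR3 ligand, measured 77.3, 405 and 1130 CPM against 502, 847 and 1590 CPM and did not pass (log2 difference -1.08, SE 0.52, adjusted p = 0.177). The 2 ligands therefore differed in how steady they were: Cxcl10 was apart in all mice, and Cxcl9 was higher in cDC1 in Untreated replicate 1, without which it passed (-1.55, adjusted p = 0.0017). Ccl5, a chemokine that T cells also make, differed by -2.50 (adjusted p = 0.000373), and CD8 T cells held 2248 CPM of it. Within cDC2 it was uneven. Pooled over mice, Ccl5 stood at 516 CPM in cluster 36, 55.5 CPM in cluster 46 and 92.3 CPM in cluster 64, beside 39.1 CPM in cDC1.

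Of 20 cytokine and cytokine receptor genes tested, 1 was higher in cDC1 and 12 in cDC2 (median log2 difference -1.01). The cDC1 gene was Flt3, the receptor for the growth factor of conventional dendritic cells, at 84, 149 and 207 CPM in cDC1 and 17.1, 62.5 and 76.1 CPM in cDC2 (log2 difference 1.37, SE 0.28, adjusted p = 0.00119). Il1r2, the decoy receptor for interleukin 1, measured 47.8, 168 and 268 CPM in cDC1 and 945, 1060 and 1290 CPM in cDC2 (log2 difference -2.82, SE 0.25, adjusted p = 1.72e-06). Il21r and Il18bp, a receptor and a soluble inhibitor, differed by -2.81 and -2.74 (adjusted p at most 4.09e-05). Il12b, the p40 chain of interleukin 12, missed the filter and is given by carriers. It had 48 UMIs in 12 of 47 cDC1 (25.5% of cells, 7.62% thinned), with 27% of them in 1 cell, and 1 UMI in 1 of 200 cDC2. By mouse the cDC1 levels were 0, 30.7 and 159 CPM, and 5 of 6 mice held a carrier (log2 difference 5.66, adjusted p = 9.25e-13 without the filter). Deposited mregDC, the mature regulatory dendritic cells kept apart in the cell table, held a mean of 925 CPM of Il12b. The 5 mregDC markers summed to 0 to 223 CPM in cDC1 and 25.0 to 208 CPM in cDC2, against 5287 CPM in mregDC. In cDC1 that sum was highest in Untreated replicate 1. Whether such cells are among the Il12b carriers was not tested. Il12a, the p35 chain, had 0 UMIs in both types.

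Among 12 costimulation and checkpoint genes tested, 2 were higher in cDC1 and 7 in cDC2 (median log2 difference -0.61). Cd86, a ligand of CD28, measured 362, 509 and 716 CPM in cDC1 and 1119, 1321 and 1563 CPM in cDC2 (log2 difference -1.36, SE 0.14, adjusted p = 3.53e-07). Cd274, which encodes PD-L1, measured 163, 192 and 247 CPM against 279, 353 and 464 CPM (log2 difference -0.82, SE 0.17, adjusted p = 0.00107). Both were apart between the types in all mice. Btla, an inhibitory receptor, was with Cd24a on the cDC1 side, at 95.5, 159 and 351 CPM in cDC1 and 33.2, 51.2 and 119.7 CPM in cDC2 (log2 difference 1.63, SE 0.33, adjusted p = 0.00181). Tnfrsf18, which encodes the antibody's target GITR, had 22 UMIs in 17 cDC1 and 83 in 62 cDC2 (log2 difference -0.63, adjusted p = 0.487 without the filter).

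Fc receptors bind the constant part of antibodies, the part that the study's variants change. Of 14 Fc receptor genes 7 were tested; 6 were higher in cDC2 and 0 in cDC1, with a median log2 difference of -2.67. Human FCGR2B, the inhibitory receptor for IgG, measured 151, 189.7 and 275 CPM in cDC1 and 1184, 1329 and 1824 CPM in cDC2 (log2 difference -2.80, SE 0.15, adjusted p = 3.48e-10). CD8 T cells measured 56.2 ± 15.3 CPM (SD, n = 6), below every cDC1 sum. Thinned to 2000 UMIs per cell, 31% of cDC1, 89.1% of cDC2 and 8.42% of CD8 T cells held a UMI of it (80.9%, 99.5% and 28.2% unthinned). Human FCGR3B, a low-affinity receptor, measured 51.5, 92.4 and 226 CPM in cDC1 and 819, 1051 and 1255 CPM in cDC2 (log2 difference -3.31, SE 0.24, adjusted p = 5.11e-08), and 29% of the cDC1 UMIs lay in 1 cell. CD8 T cells held 173 ± 27.8 CPM (SD, n = 6) of FCGR3B, above 5 of the 6 cDC1 sums. Whether the cDC1 level is expression or background was not tested. FCGR3A and FCGR3B, and FCGR2A, FCGR2B and FCGR2C, are near-identical in parts, so how the counting divided reads among them is uncertain.

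FCGR2A, an activating receptor, measured 18.4, 28.9 and 77.1 CPM in cDC1 and 92.7, 168 and 235 CPM in cDC2 (log2 difference -1.90, SE 0.36, adjusted p = 0.000757), beside 46.6 CPM in CD8 T cells, above the cDC1 median. FCGR3A, the activating receptor of NK cells and macrophages, measured 0, 7.53 and 27.7 CPM against 58, 73.1 and 89.9 CPM (log2 difference -2.85, SE 0.45, adjusted p = 8.19e-05), and CD8 T cells at 84.4 CPM were as high as cDC2. The cDC1 sums lay below that CD8 level, so it does not serve as a floor common to all cells. Whether either type expresses FCGR3A was not tested. Fcer1g, the mouse signalling chain shared by activating receptors, measured 97.2, 223 and 341 CPM in cDC1 and 939, 1382 and 1624 CPM in cDC2 (log2 difference -2.67, SE 0.21, adjusted p = 3.45e-07), with 329 CPM in CD8 T cells, above the cDC1 median. FCGR1A, the high-affinity receptor, had 8 UMIs in 5 cDC1 and 97 in 50 cDC2 (log2 difference -2.29, adjusted p = 6.99e-05 without the filter). Mouse Fcgr2b was also higher in cDC2 (log2 difference -1.34, SE 0.26, adjusted p = 0.000517), and mouse Fcgr1 and Fcgr4 had 0 UMIs in both types. With GA-aFuc replicate 1 the cDC1 sum was the highest of the 6 for FCGR2A and FCGR3B, in the mouse with the highest cDC1 macrophage markers, and the part of those markers was not tested.

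**Figure D3:**
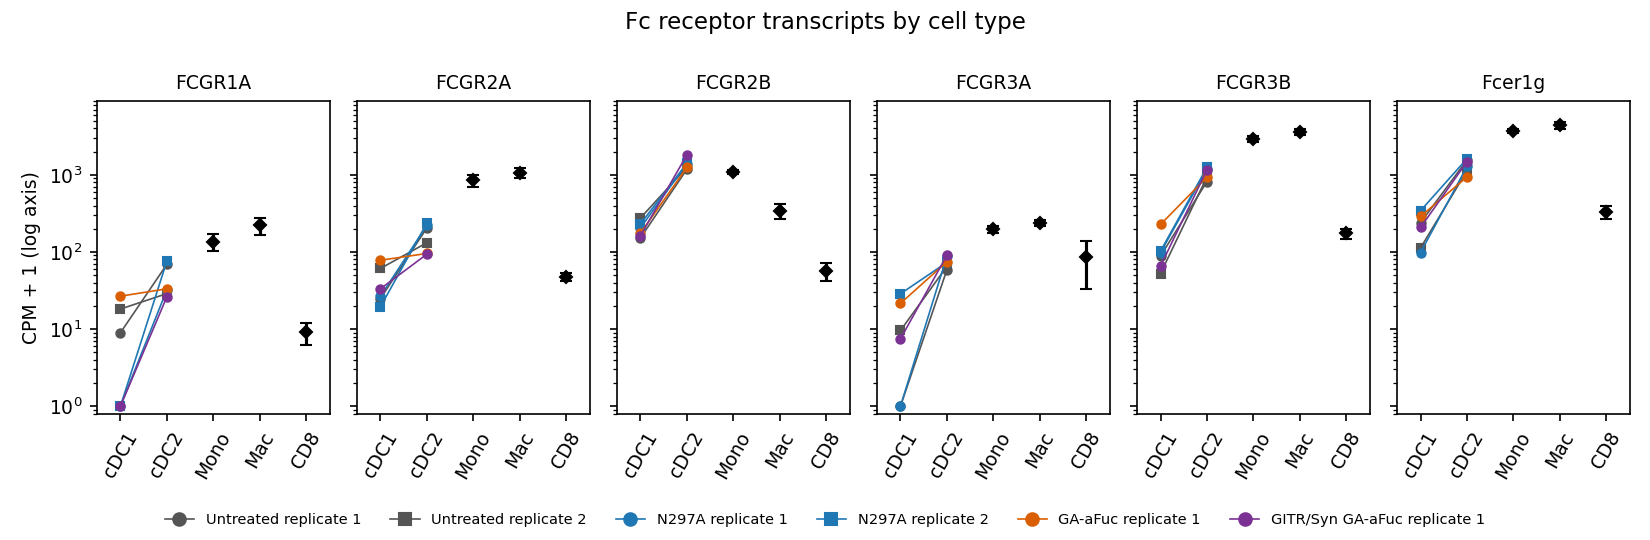
Level of 6 Fc receptor genes (CPM plus 1, log axis) in cDC1 and cDC2 of each mouse, joined by lines, with the mean and SD over 6 mice in monocytes (Mono), macrophages (Mac) and CD8 T cells (CD8) as black diamonds. The FCGR2B lines all rise from 151 to 275 CPM in cDC1 to between 1184 and 1824 CPM in cDC2, while for FCGR3A the CD8 diamond stands at the height of cDC2.

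Of 33 cell cycle genes 18 were tested; 10 were higher in cDC1 and 0 in cDC2, with a median log2 difference of 0.99. Stmn1, a tubulin regulator of dividing cells, measured 64.6, 280.4 and 425 CPM in cDC1 and 14.1, 123 and 154 CPM in cDC2 (log2 difference 1.33, SE 0.29, adjusted p = 0.00252). Birc5, survivin, measured 0, 154 and 310.5 CPM against 11.2, 51.3 and 58 CPM (log2 difference 1.76, SE 0.42, adjusted p = 0.00705). The lowest cDC1 value of both belonged to N297A replicate 2, where the direction was the opposite of the other 5 mice. Mcm3, a subunit of the replicative helicase, measured 45.2, 101 and 123 CPM in cDC1 and 22.3, 33.4 and 64.6 CPM in cDC2 (log2 difference 1.39, SE 0.26, adjusted p = 0.000481) and was higher in cDC1 in all 6 mice. Mki67, the usual marker of cycling cells, had UMIs in 15 of 47 cDC1 and 24 of 200 cDC2 and did not pass (log2 difference 1.28, SE 0.51, adjusted p = 0.081), but passed without N297A replicate 2 (1.52, adjusted p = 0.00644).

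By mouse, the 33 genes summed to 9935 and 6984 CPM in the cDC1 of the Untreated mice, 7834 and 2878 CPM under N297A, 6901 CPM under GA-aFuc and 5098 CPM under GITR/Syn GA-aFuc. The cDC2 sums were 3860 and 3841 CPM, 3747 and 3446 CPM, 3530 CPM and 2015 CPM in the same order. Only N297A replicate 2, with 6 cDC1, had the higher sum in cDC2. Without that mouse 14 of 20 genes tested were higher in cDC1, and without GA-aFuc replicate 1 the count was 6 of 17. A cDC1 sum holds at most 10 cells, and the UMIs of Top2a, a topoisomerase of dividing cells, came from 1 to 4 cDC1 per mouse.

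Within cDC2 the UMIs of Top2a, Mki67 and Stmn1 came mainly from the 12 cells of cluster 64, whose levels of these genes were above those of cDC1. This did not hold for every cell cycle gene: Mcm3 had 34 UMIs in cluster 64, 15 in cluster 36 and 40 in cluster 46. Pooled over mice, Top2a stood at 842 CPM in cluster 64, 11.2 CPM in cluster 36, 13.2 CPM in cluster 46 and 290.4 CPM in cDC1, and 219 of its 245 cDC2 UMIs lay in cluster 64. Mki67 stood at 373 CPM in cluster 64 and 109 CPM in cDC1, and Stmn1 at 785 and 283 CPM. The GITR/Syn GA-aFuc mouse, with the lowest cDC2 sum, held 0 cells of cluster 64, and the other mice 2 to 4. Against cluster 36 alone, 6 of 8 cell cycle genes tested were higher in cDC1 and 0 in cDC2. Against cluster 46 alone 8 of 10 were higher in cDC1 and 1 in cDC2. Both counts leave out the cDC2 of cluster 64 but keep every cDC1. They therefore cannot show whether the types as a whole differ in cell cycle genes.

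**Figure D4:**
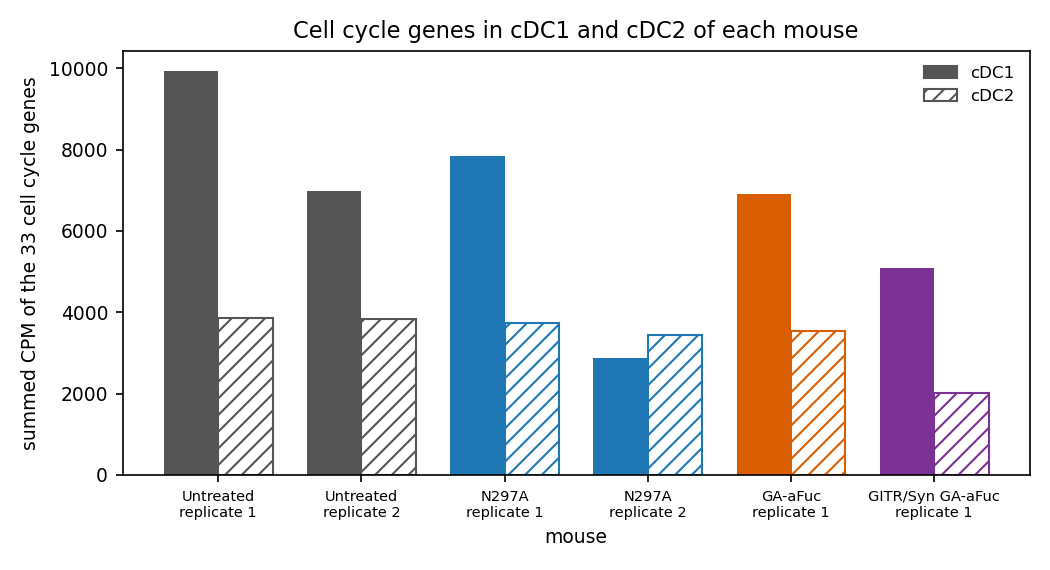
Summed CPM of the 33 cell cycle genes in the cDC1 (filled bars) and cDC2 (hatched bars) of each mouse, with 1 sum per bar and so no error bar. The cDC1 bar is the higher one in 5 mice, from 5098 to 9935 CPM, and the lower one in N297A replicate 2, at 2878 CPM.

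Among 46 oxidative phosphorylation genes tested, 16 were higher in cDC1 and 0 in cDC2, and the median log2 difference was small, 0.30. Ndufa4, a subunit of the respiratory chain, stood apart at 429.5, 495 and 557 CPM in cDC1 and 109, 145 and 201 CPM in cDC2 (log2 difference 1.77, SE 0.15, adjusted p = 4.54e-08). The count depended on the analysis, at 9 with DESeq2 and 4 without a filter. It was 9, 10 or 11 when any 1 mouse other than Untreated replicate 1 was left out. Of 14 hypoxia and glycolysis genes, 4 were higher in cDC1 and 3 in cDC2, beside 15.6% and 18.2% of all genes tested. The cDC1 side was led by Pgk1 (0.91, adjusted p = 0.000198) and Ldha (0.86, adjusted p = 6.54e-05). The cDC2 side included Hif1a, the oxygen-sensing factor (-0.79, adjusted p = 0.00256).

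Of 18 lysosome and phagocytosis genes tested, 4 were higher in cDC1 and 9 in cDC2 (median log2 difference -0.61). On the cDC1 side stood Psap, the precursor of saposins, at 1751, 2012 and 2723 CPM in cDC1 and 484, 741 and 978 CPM in cDC2 (log2 difference 1.58, SE 0.14, adjusted p = 3.06e-07), and Ly75, the endocytic receptor DEC-205, at 68.7, 110.4 and 174 CPM against 3.41, 11.8 and 69.6 CPM (log2 difference 2.69, SE 0.56, adjusted p = 0.00429). The Ly75 ranges overlapped at the highest cDC2 sum alone, and 47% of its cDC2 UMIs lay in 1 cell. Axl, a receptor for dying cells, Lamp1, a lysosomal membrane protein, and Ctsa, a lysosomal protease, differed by -1.85, -1.63 and -1.61 (adjusted p at most 0.000379). Of 29 actin and small GTPase regulators, 10 were higher in cDC1 and 4 in cDC2 (median 0.14), beside 15.6% and 18.2% of all genes tested. Tmsb4x, which sequesters actin monomers, measured 29229, 35021 and 38652 CPM in cDC1 and 12820, 16175 and 18047 CPM in cDC2 (log2 difference 1.11, SE 0.06, adjusted p = 3.52e-10).

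**Figure D5:**
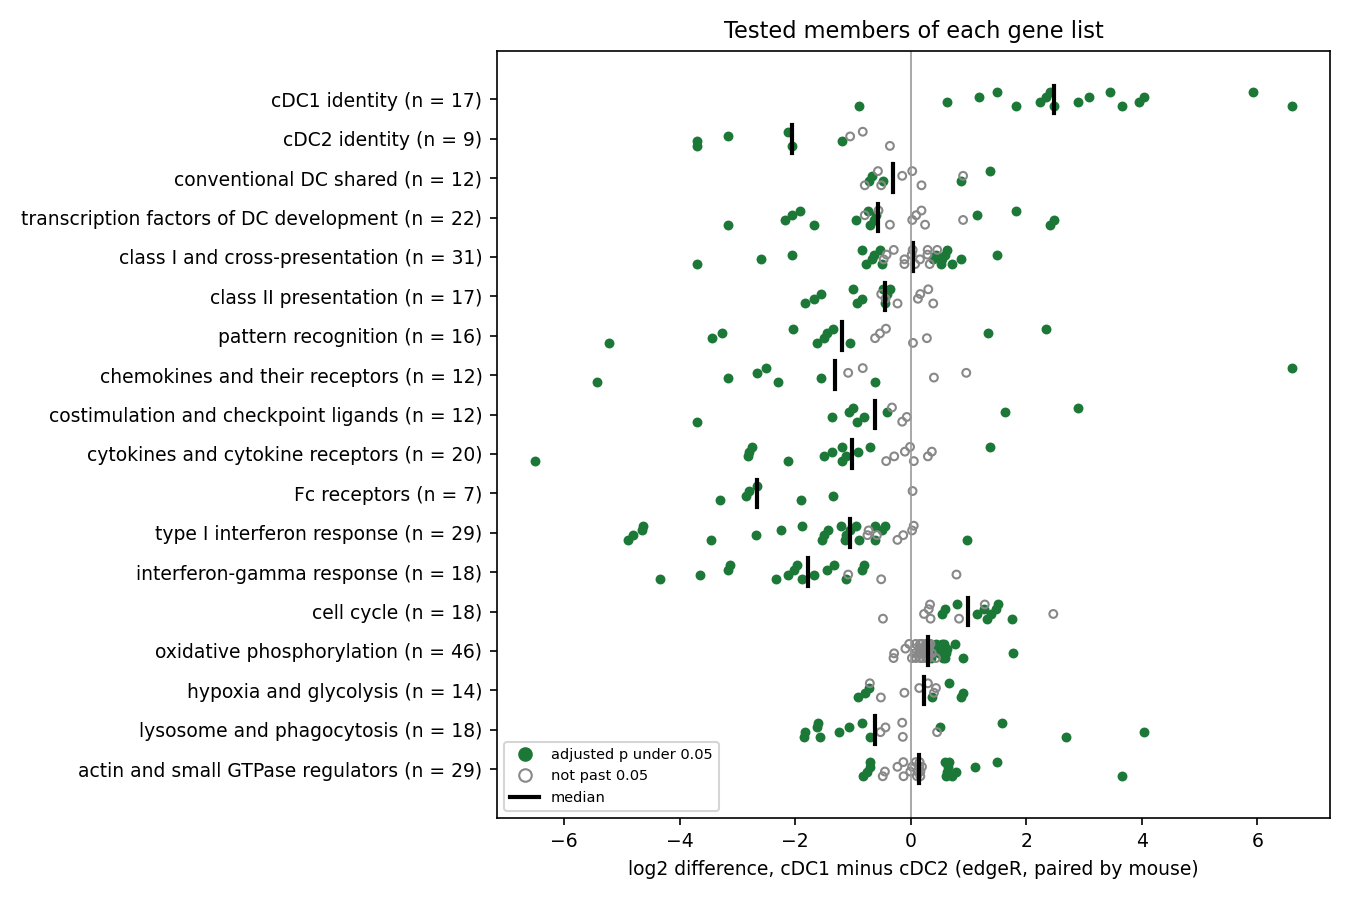
Log2 difference, cDC1 minus cDC2, of every tested member of each gene list (1 point a gene), filled where the adjusted p was under 0.05, with the median as a black bar and n the genes tested. The cDC1 identity and cell cycle lists lie mainly right of 0, the Fc receptor and both interferon lists mainly left, and class I and cross-presentation spreads to both sides around a median of 0.03.

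Whether the difference between the types changed with treatment could be tested for N297A against Untreated, with 2 mice each and 2 residual degrees of freedom. Of 3657 genes, 0 had a higher difference under N297A (0% of the genes tested) and 1, S100a10, had a lower one (0.0273%) by edgeR's test of the interaction, and 175 lay at an unadjusted p under 0.05. S100a10, a partner of annexin A2, measured 581 and 687 CPM in the cDC1 of the Untreated mice and 154 and 111 CPM under N297A, with 370 CPM under GA-aFuc and 439 CPM under GITR/Syn GA-aFuc. In cDC2 all 6 sums lay between 966 and 1324 CPM. The interaction was -2.19 on the log2 scale (SE 0.35, edgeR adjusted p = 0.0231). The call was lost with DESeq2 (adjusted p = 0.223), without N297A replicate 2 (adjusted p = 0.341) and with only cells whose top hashtag held at least 90% of hashtag UMIs (adjusted p = 0.0961), and DESeq2 called 0 genes with 30 at an unadjusted p under 0.05. On simulated counts the test found 8% of 2-fold and 45% of 4-fold changes, so a count this low does not show that other genes were unaffected.

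cDC1 made up 18.75% and 22.9% of both types together in the Untreated mice, 17.5% and 15.8% under N297A, 20.9% under GA-aFuc and 19.0% under GITR/Syn GA-aFuc. The 95% Clopper-Pearson intervals, which cover counting error only, ran from 7.21% to 36.4% and from 10.4% to 40.1% in the Untreated mice and from 8.75% to 29.9% and from 6.02% to 31.3% under N297A. The mean under N297A was 16.7% ± 1.24 (SD, n = 2) and in the Untreated mice 20.8% ± 2.90 (SD, n = 2), a difference of -4.14 points (two-sided exact permutation p = 0.333, the smallest that 2 against 2 mice allow). As a share of all annotated cells of the mouse the difference was 0.0825 points in the other direction (0.548% against 0.465%, exact permutation p = 0.667), and cDC2 made up 3.16% and 2.25% of annotated cells under N297A and 1.75% and 1.78% in the Untreated mice.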

How the data were processed

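Per the file headers, the authors deposited raw UMI counts per feature and barcode, made with Cell Ranger 9.0.0 on human and mouse references together, and a cell table with a treatment, type and cluster number per cell. The counts had no normalization, and whether doublets had been removed is not stated. Table cells with at least 1000 mouse UMIs were matched by barcode. Each took the mouse of its top hashtag, a median of 95.0% of hashtag UMIs in cDC1 and 94.1% in cDC2. Of 563 cDC rows, 314 held at most 258 UMIs in this library and were not used. No doublet caller was run. That a hashtag marks 1 mouse was read from the labels.

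UMIs were summed per mouse and type and fitted with edgeR 4.0.16 (R 4.3.3): filterByExpr, TMM factors, robust quasi-likelihood F-test, type plus mouse as a block, Benjamini-Hochberg adjustment over all genes. Both types come from the same animal, which pairs the sums (correlation of same-mouse deviations -0.00548 to 0.137, below the highest with another mouse, 0.0385 to 0.175, in 5 of 6 mice). DESeq2 1.42.0 and limma 3.58.1 were alternatives. On simulated counts the paired test found 75% of 2-fold and 99% of 4-fold changes. Thinned shares are expectations at 2000 UMIs per cell. Promoters came from RefSeq on GRCm38.p6, matched by symbol.

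The members and gene lists were chosen with earlier results of these data known. Genes were named by rule: the 14 largest differences per direction on 1 side in all 6 mice, with at least 50 CPM, 10 carrier cells and no cell over 33% of the UMIs; all identity and Fc receptor genes; and up to 4 called per direction of each other list; and up to 5 called per direction of the interaction. Named outside it, after their values were seen, were B2m, C1qa, Cd274, Cd3e, Cebpb, Chil3, Cxcl9, Cyba, Epcam, F13a1, H2-Ab1, H2-K1, Ifnar2, Ifngr1, Il12a, Il12b, Irf1, Irf7, Krt8, Krt18, Mki67, Rsad2, Serpina3g, Stmn1, Tap1, Tlr1, Tlr12 and Tnfrsf18. Some genes of the lists are counted but not reported here by name.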

Additional observations from a re-analysis of the deposited data

Results flagged for a closer look

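Of 97 named genes that were screened, 4 had 1 mouse far from the other 5 in the log2 difference (gap over range above Dixon's 95% value for 6 samples). Chance flags about 1 in 20. Birc5 measured -2.99 in N297A replicate 2, where none of its 6 cDC1 held a UMI, against 1.37 to 2.51 in the other mice. Psmb9 measured 1.01 in the same mouse, against 0.58 to 0.71. Sirpa measured -1.12 in GA-aFuc replicate 1, against -4.19 to -3.37. Naaa measured 3.63 in Untreated replicate 2, against 1.46 to 2.11. In addition, the S100a10 difference between the types changed by -2.19 on the log2 scale from the Untreated mice to N297A, by edgeR's test of the interaction.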

How the results depend on the processing

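With 6 to 10 cDC1 per mouse, a few cells can set a cDC1 level. Of the 1233 called genes, those also tested in an alternative were called again in 71.4% (DESeq2) to 98.2% (at least 100 UMIs), and every gene called in both had the same direction in each of 19 alternatives. Without the block for mouse 634 genes were higher in cDC1 and 689 in cDC2. DESeq2 called 330 genes higher in cDC1, and 1251 were higher in cDC2 without a filter. Leaving out 1 mouse at a time gave 410 to 547 genes higher in cDC1 and 579 to 664 higher in cDC2.

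For the interaction, leaving out 1 mouse at a time gave 0 to 4 genes with a higher and 0 to 6 with a lower difference under N297A, and an arm left with 1 mouse was assumed to vary like the others. The number lower was 0 with DESeq2 and with a top hashtag of at least 90%, 2 with RLE size factors and without the 5% of cells with most UMIs, 3 with limma-voom and 4 without a filter, where 5 were higher. The share of cDC1 changed sign to 0.0825 points over all annotated cells.

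Genes past no threshold that changed sign were Cyba, Irf7, Lyz2 and Tap1. Against cluster 36 only, Cyba was -0.11, Irf7 -0.31 and Tap1 -0.0107, and against cluster 46 only Lyz2 was 0.20. Without a filter Cyba was -0.0034, Irf7 -0.11 and Tap1 -0.13. Without the top cell of each gene Irf7 was -0.12 and Tap1 -0.0196, and without the 5% of cells with most UMIs -0.0281 and -0.0183. Leaving out 1 mouse at a time gave -0.0821 (without GA-aFuc replicate 1) to 0.0974 for Irf7 and -0.10 (without Untreated replicate 2) to 0.0795 for Tap1. The cause was not tested.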

Other observations

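The cDC2 of the 2 larger deposited clusters differed in levels that the comparison with cDC1 averages over. Pooled over mice, cluster 36 held 1009 CPM of Ly6c2, a monocyte marker, against 216 CPM in cluster 46 and 185 CPM in cDC1. Cxcl10 stood at 1268 CPM in cluster 36 and 542 CPM in cluster 46, and Ifit3 at 359.6 CPM and 202 CPM, against 106 and 10.1 CPM in cDC1. Mgl2 went the other way, at 143 CPM in cluster 36 and 233 CPM in cluster 46, as did Epcam, at 22.4 and 81.9 CPM. Sirpa was close, at 105 and 77.5 CPM, and Klf4 at 265 and 282 CPM. The clusters were formed from these genes, so no test is given.

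Among the 314 cDC rows outside this library, cDC1 made up 48, or 15.3% (95% Clopper-Pearson interval 11.5% to 19.8%), beside 47 of the 247 cells compared. That interval pools cells over the treatments and covers counting error only, not the spread between mice.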
